A study of Homo sapiens with 12 samples.

Results

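The BCL2 family decides whether the outer membrane of the mitochondrion stays intact, and the 9 members described here are BCL2, BCL2L1, MCL1, BAK1, BMF, BCL2L11, BID, BAD and BIK. Each was taken from the deposited table by its gene symbol, as the brightest probe set of that symbol by the mean of the 12 arrays. All 9 were found, each with 1 probe set, among 18417 gene symbols that stand alone on a probe set. RNA was measured in T47D-MTVL cells, a breast cancer line of human origin that has the progesterone receptor and carries an integrated copy of a luciferase reporter driven by the MMTV promoter. The 4 conditions were a control siRNA with vehicle (siCt EtOH), the control siRNA with the synthetic progestin R5020 (siCt R5020), an siRNA against the chromatin remodeller CHD8 with vehicle (siCHD8 EtOH) and the same siRNA with R5020 (siCHD8 R5020), with 3 arrays each. In all conditions the cells went without serum for 48 h, and R5020 at 10 nM or its ethanol vehicle was then given for 6 h. The sample titles call the arrays of a condition biological replicates, but the sources used here do not say whether each was transfected separately, so the p-values measure the spread between these arrays. All cells come from 1 line.

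In this family the survival proteins (BCL2, BCL-xL from BCL2L1, and MCL1) hold the membrane closed by binding the effectors BAK and BAX. BH3-only proteins (BMF, BIM from BCL2L11, BID, BAD and BIK) carry stress signals: they occupy the survival proteins, and some of them also activate the effectors directly. Once active, effectors form pores, cytochrome c leaves the mitochondrion, and caspases are switched on. In mammary epithelium BIM and BMF take part in the death of cells that lose contact with the matrix, and BCL-xL and MCL1 keep luminal cells alive.

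Values are log2 intensities after RMA, array by array in the order of the replicate numbers, so a difference of 1 is a 2-fold change, and a gene was called changed at an adjusted p under 0.05. In short, R5020 raised BMF 2.80-fold, BCL2L11 1.56-fold and BCL2L1 1.51-fold in siCt, and raised BMF 2.67-fold and BCL2L1 1.46-fold in siCHD8. The progestin response thus included genes on both sides of the family, 1 survival gene and a pair of BH3-only genes. The other 6 members passed no test in any comparison, and no member passed a test of the CHD8 knockdown.

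The stretches just upstream of the genes that R5020 raised in siCt are shown as a description. They are the 250 bases before the RefSeq start, read 5′ to 3′ on the gene's own strand in GRCh38.p14. They lie at chr15:40108880-40109129 (minus strand) for BMF, chr20:31723964-31724213 (minus strand) for BCL2L1 and chr2:111120664-111120913 (plus strand) for BCL2L11. Capitals mark the single match to the motifs searched.
BMF: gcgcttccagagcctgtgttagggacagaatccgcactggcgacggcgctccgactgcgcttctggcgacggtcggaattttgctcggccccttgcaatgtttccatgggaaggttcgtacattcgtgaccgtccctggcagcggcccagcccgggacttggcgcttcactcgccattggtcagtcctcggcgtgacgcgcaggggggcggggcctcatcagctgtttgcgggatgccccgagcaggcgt
BCL2L1: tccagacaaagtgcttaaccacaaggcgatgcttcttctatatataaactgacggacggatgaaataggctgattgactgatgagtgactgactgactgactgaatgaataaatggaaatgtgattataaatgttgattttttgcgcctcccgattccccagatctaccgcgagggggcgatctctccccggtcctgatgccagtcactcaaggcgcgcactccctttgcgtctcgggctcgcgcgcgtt
BCL2L11: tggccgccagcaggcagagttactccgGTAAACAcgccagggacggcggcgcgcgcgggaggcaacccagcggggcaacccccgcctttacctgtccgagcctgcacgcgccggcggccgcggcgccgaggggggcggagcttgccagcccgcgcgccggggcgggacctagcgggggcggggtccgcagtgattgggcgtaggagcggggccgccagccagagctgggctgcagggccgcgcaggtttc
Both strands were searched for TGTTCT, a form of TGTYCY (Y is C or T), which the study gives as the progesterone receptor's consensus. They were searched for ACANNNTGT, the core of the receptor's palindromic element, and for GTAAACA, a forkhead motif of the kind bound by FOXO factors. FOXA1, which the study examined, is a forkhead factor too, and binding by any of them was not tested. Other forms of TGTYCY were not searched for, and the study places most receptor sites in introns and intergenic regions. The BCL2L11 stretch holds GTAAACA once, starting 223 bases before the gene start, and the BMF and BCL2L1 stretches hold none of the motifs searched. The BMF stretch does hold gggaca, which reads TGTCCC on the other strand and is thus a form of TGTYCY left out of the search. How often such forms occur in all stretches was not counted. Of all 35116 stretches of this length in the RefSeq promoter table, 12.4% hold TGTTCT, 4.61% hold ACANNNTGT and 2.98% hold GTAAACA. A stretch at the gene start was matched for 6 of the 9 members. In the other matched members, BAK1 has ACANNNTGT once, 36 bases before its start, and BAD and BID have no match to the motifs searched. Among forms of TGTYCY left out of the search, BAK1 holds gggaca and BID holds tgttcc.

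The arrays were alike in scale, with medians between 4.52 and 4.62, and arrays of a condition correlated at 0.989 to 0.996 across probe sets. CHD8, the target of the siRNA, stood in siCHD8 at 66.9% of siCt with vehicle and at 65.3% with R5020. Its adjusted p in limma was 0.0711 and 0.0627, so the knockdown is visible but not called on these arrays. The CHD8 probe set averaged 5.26, near the limit of 5 set for dim probe sets, where differences can be compressed. The study itself showed the depletion by Western blot and by RT-qPCR. R5020 itself was followed by less CHD8, with log2 differences of -0.42 in siCt (adjusted p 0.0349) and -0.46 in siCHD8 (adjusted p 0.0258). All 9 luminal markers had mean log2 intensities of 6.95 or more, while those of 6 of 6 measured blood and endothelial markers were 2.89 or less, 4 of 5 fibroblast markers were under 5, and the basal keratins KRT5 and KRT14 stood at 3.53 and 5.02. Marker levels also moved with R5020, beside every hormone response below: the mean level of the luminal markers was 9.64 to 9.77 in siCt with vehicle and 9.05 to 9.12 with R5020, and 9.50 to 9.69 and 8.97 to 9.04 in siCHD8, with 5 of 9 markers called lower in siCt and 6 of 9 in siCHD8. In siCt the mean levels of the other sets were lower with R5020 as well, without overlap. Basal markers ranged over 4.30 to 4.58 with vehicle and 4.01 to 4.20 with R5020 (1 of 2 called lower), fibroblast markers over 3.01 to 3.27 and 2.89 to 2.98 (1 of 5), and blood and endothelial markers over 2.14 to 2.24 and 2.06 to 2.13 (0 of 6). In siCHD8 none of these 3 sets had a called marker. The part of these shifts in the members' responses was not tested. In such bulk RNA, fewer cells that express a gene and less RNA per cell cannot be told apart.

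BCL2 founded the family as an oncogene of lymphoma and is an estrogen-responsive survival gene in the breast. The BCL2 arrays read 3.27, 3.27 and 3.24 in siCt with vehicle, 3.06, 3.04 and 3.15 in siCt with R5020, 3.06, 3.40 and 3.36 in siCHD8 with vehicle, and 3.18, 3.20 and 3.04 in siCHD8 with R5020. The 3 hormone arrays of siCt lay below its 3 vehicle arrays, while in siCHD8 the groups overlapped. The log2 difference for R5020 was -0.18 in siCt (limma, adjusted p 0.307) and -0.13 in siCHD8 (adjusted p 0.565), and neither passed. The mean over the 12 arrays, 3.19, is under the limit of 5 that was set for dim probe sets, where differences can be compressed.

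BCL2L1, which encodes BCL-xL, was raised by R5020 with either siRNA. The arrays read 9.53, 9.43 and 9.63 in siCt with vehicle and 10.07, 10.15 and 10.15 with R5020. In siCHD8 it was 9.52, 9.53 and 9.38 with vehicle and 10.00, 10.05 and 10.02 with R5020. Every hormone array lay above every vehicle array, over both siRNAs. The rise was 0.59 ± 0.10 (SE) in siCt, with a 95% interval of 0.38 to 0.80 and an adjusted p of 0.000613 in limma. In siCHD8 it was 0.55 ± 0.10, with an interval of 0.34 to 0.76 and an adjusted p of 0.00133. BCL2L1 also makes a short splice form that opposes BCL-xL, and 1 probe set for the gene does not separate them.

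MCL1, a survival protein with a short life in the cell, did not pass in any comparison. MCL1 read 8.33, 8.51 and 8.63 in siCt with vehicle, 8.62, 8.53 and 8.69 in siCt with R5020, 8.79, 8.72 and 8.58 in siCHD8 with vehicle, and 8.73, 8.68 and 8.60 in siCHD8 with R5020. The 4 groups overlapped throughout. R5020 minus vehicle was 0.13 in siCt, with an interval of -0.11 to 0.36, and -0.03 in siCHD8, with an interval of -0.26 to 0.21.

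BAK1 encodes the effector BAK, which sits in the mitochondrial membrane before any signal. The BAK1 probe set read 5.80, 5.69 and 5.84 in siCt with vehicle, 5.85, 6.20 and 5.72 in siCt with R5020, 5.85, 5.87 and 5.48 in siCHD8 with vehicle, and 5.70, 5.91 and 6.08 in siCHD8 with R5020. One array of siCt with R5020 was the highest of all, and the groups overlapped. The differences for R5020 were 0.14 in siCt (limma, adjusted p 0.567) and 0.16 in siCHD8 (adjusted p 0.608). RefSeq lists 2 BAK1 pseudogenes, BAK1P1 and BAK1P2, and whether the probe set also binds their RNA is not known here.

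**Figure D1:**
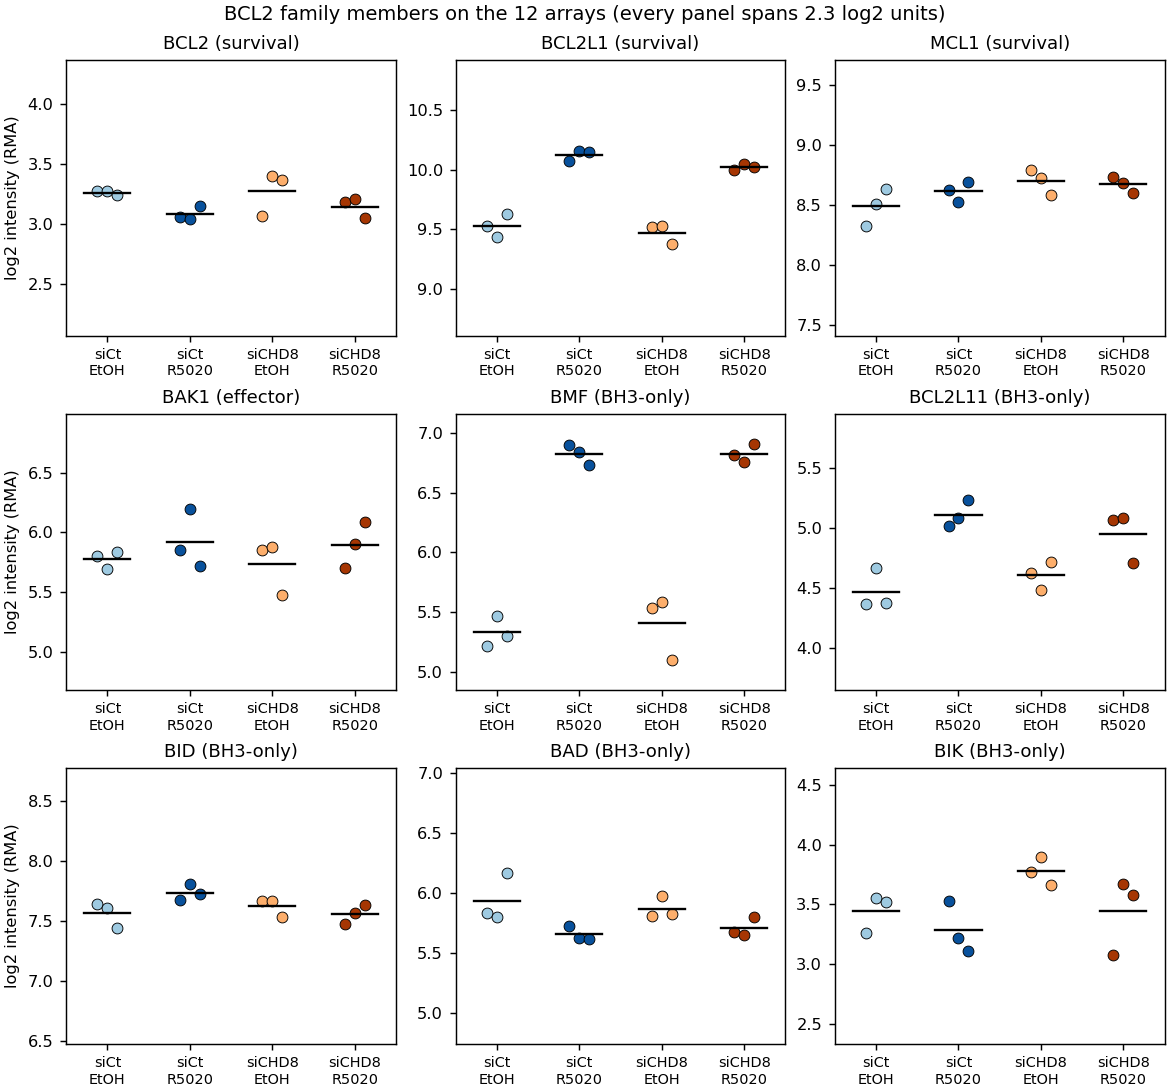
Log2 RMA intensity of each of the 9 members on the 12 arrays, 1 panel per gene, with points for arrays and a bar for the mean of each condition. BMF and BCL2L1 stand higher with R5020 under both siRNAs without overlap, BCL2L11 is higher with 1 low array in siCHD8, and BAD is slightly lower with R5020 under both siRNAs without passing the test.

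BMF had the widest response of the 9 members. The protein is a BH3-only factor tied to the actin-based myosin V motor, from which it is released when cells detach. BMF read 5.22, 5.47 and 5.31 in siCt with vehicle and 6.90, 6.83 and 6.73 with R5020. In siCHD8 it was 5.53, 5.59 and 5.10 with vehicle and 6.81, 6.76 and 6.90 with R5020. The lowest hormone array stood more than 1 log2 unit above the highest vehicle array. The rise was 1.49 ± 0.13 (SE) in siCt, a 2.80-fold change, with an interval of 1.21 to 1.76 and an adjusted p of 1.21e-06 in limma. In siCHD8 it was 1.42 ± 0.13, a 2.67-fold change, with an interval of 1.14 to 1.69 and an adjusted p of 2.18e-06.

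BCL2L11 encodes BIM, a BH3-only protein that binds every survival protein of the family and that FOXO factors are known to induce. Its log2 intensity was 4.37, 4.66 and 4.38 in siCt with vehicle and 5.02, 5.09 and 5.23 with R5020. In siCHD8 it was 4.63, 4.48 and 4.71 with vehicle and 5.07, 5.08 and 4.71 with R5020. In siCt the groups were apart, and in siCHD8 the third hormone array fell just below the highest vehicle array. The rise in siCt was 0.64 ± 0.13 (SE), with an interval of 0.36 to 0.92 and an adjusted p of 0.00307 in limma. The difference in siCHD8 was 0.35 ± 0.13, with an interval of 0.07 to 0.62, and did not pass (adjusted p 0.114). Without siCHD8 R5020 replicate 3 it was 0.47 and did pass (adjusted p 0.0438); over the 21 alternatives tried the adjusted p ran from 0.0438 to 0.335. The mean over the 12 arrays, 4.79, is also under the limit for dim probe sets.

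BID links the death receptors to mitochondria once caspase-8 has cleaved it. On the log2 scale BID read 7.64, 7.61 and 7.44 in siCt with vehicle, 7.67, 7.81 and 7.72 in siCt with R5020, 7.67, 7.66 and 7.53 in siCHD8 with vehicle, and 7.47, 7.56 and 7.63 in siCHD8 with R5020. The hormone arrays lay above the vehicle arrays in siCt and among them in siCHD8. The differences were 0.17 in siCt, with an interval of -0.04 to 0.39, and -0.07 in siCHD8, with an interval of -0.29 to 0.15, and neither passed in limma (adjusted p 0.288 and 0.785).

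BAD is a BH3-only protein that survival kinases keep inactive by phosphorylation. On the log2 scale it read 5.84, 5.80 and 6.17 in siCt with vehicle, 5.73, 5.62 and 5.61 in siCt with R5020, 5.81, 5.97 and 5.82 in siCHD8 with vehicle, and 5.67, 5.64 and 5.80 in siCHD8 with R5020. The hormone arrays lay below the vehicle arrays with either siRNA, by a narrow margin in siCHD8. The log2 differences were -0.28 in siCt, with an interval of -0.53 to -0.03, and -0.16 in siCHD8, with an interval of -0.41 to 0.09. After adjustment over all probe sets neither passed in limma (adjusted p 0.129 and 0.476).

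BIK is a BH3-only protein of the endoplasmic reticulum. The log2 intensity of its probe set was 3.27, 3.56 and 3.52 in siCt with vehicle, 3.53, 3.22 and 3.11 in siCt with R5020, 3.77, 3.90 and 3.66 in siCHD8 with vehicle, and 3.08, 3.67 and 3.57 in siCHD8 with R5020. The 3 arrays of siCHD8 with vehicle were above all 3 of siCt with vehicle, and a single array was the lowest in siCHD8 with R5020. R5020 minus vehicle was -0.16 in siCt and -0.34 in siCHD8 (limma, adjusted p 0.54 and 0.222). Its mean of 3.49 makes it a dim probe set as well.

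Counted together, 3 of 9 members were called higher with R5020 in siCt and 0 lower, beside 8.1% of 21214 probe sets called higher and 6% lower. By the study's own limits, a fold over 1.5 at an adjusted p under 0.01, the count higher was again 3, beside 4.4% of probe sets. In siCHD8, 2 members were called higher and 0 lower, beside 6.04% and 5.43%. Before adjustment 4 of 9 members had a p under 0.05 in limma with either siRNA, beside 27.9% of all probe sets in siCt and 22.4% in siCHD8, BAD being the fourth in siCt, and BCL2L11 and BIK joining BMF and BCL2L1 in siCHD8. The median log2 difference of the 9 members was 0.14 in siCt and -0.03 in siCHD8, against -0.05 and -0.02 over all probe sets tested. The share called is thus above the background, while the median of the members is near 0: a few members passed and most did not. The members were chosen with earlier results of these data known, so this excess is a description and not a test.

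**Figure D2:**
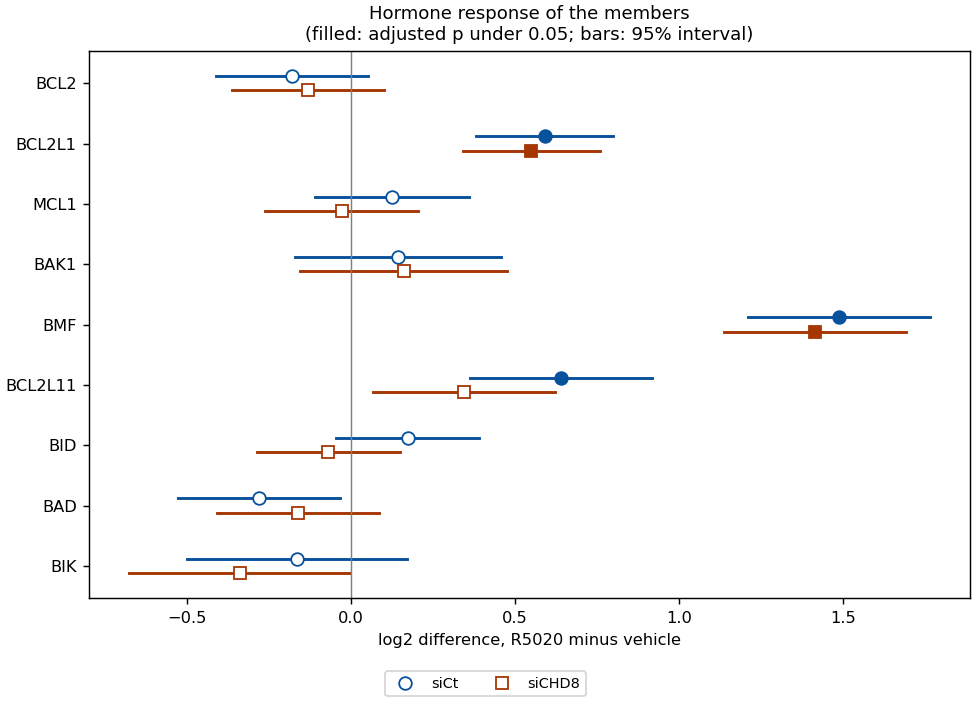
Log2 difference, R5020 minus vehicle, of each member in siCt (circles) and siCHD8 (squares), with 95% intervals from limma; filled symbols passed an adjusted p under 0.05. BMF lies near 1.49 and 1.42, BCL2L1 near 0.59 and 0.55, and BCL2L11 at 0.64 in siCt and 0.35 in siCHD8.

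The next comparison asked whether depletion of CHD8 altered the hormone response, by the difference of the responses, siCHD8 minus siCt. In limma 0 of 9 members and 0% of all probe sets were called, the lowest adjusted p of any probe set being 0.356. Before adjustment 0 of 9 members and 9.56% of all probe sets had a p under 0.05. For BMF the difference of responses was -0.07, with an interval of -0.46 to 0.32, and for BCL2L1 it was -0.04, with an interval of -0.34 to 0.26. The lowest value was that of BCL2L11, -0.30, with an interval of -0.69 to 0.10 and an adjusted p of 0.611, followed by BID at -0.24 (adjusted p 0.604). The highest was that of BAD, 0.12. The response of BCL2L11 passed in siCt and not in siCHD8, but by this test the responses are not shown to differ.

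The study called a hormone gene dependent on CHD8 when the change in siCHD8 over that in siCt was below 0.8 or above 1.2. It does not state the scale of this ratio. Linear folds were divided here, and ratios of log2 changes were not computed. Such ratios would differ, the log2 change of BCL2L11 being 0.35 in siCHD8 and 0.64 in siCt. Taken as a ratio of linear folds, 9 of 9 members lay between these limits, with 0.95 for BMF, 0.97 for BCL2L1 and 0.81 for BCL2L11. Only these named members were called for R5020 in siCt. The ratios of the others, with no called response, do not measure dependence on CHD8. The share of all probe sets between the limits is not given here. On the linear scale BCL2L11 is close to the lower limit. Over 21 alternatives its ratio ran from 0.762 to 0.887 and was below 0.8 in 6 of them, namely under median centring (0.782) and in 5 that left out a single array: siCt EtOH replicate 2 (0.762), siCt R5020 replicate 1 (0.788), siCHD8 EtOH replicate 2 (0.780), and siCHD8 R5020 replicate 1 (0.783) or replicate 2 (0.779).

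With vehicle, 0 of 9 members were called between siCHD8 and siCt, beside 0.292% of all probe sets. Before adjustment, again in limma, 0 of 9 members and 12.1% of all probe sets had a p under 0.05. BIK was the member with the widest gap, 0.33 ± 0.16 (SE), with an unadjusted p of 0.0539 and an adjusted p of 0.422 in limma, and MCL1 followed at 0.21 (adjusted p 0.471). The other 7 members lay between -0.07 and 0.14. With R5020, 0 of 9 members were called, beside 0.189%, and 0 of 9 against 13.9% of all probe sets passed before adjustment. There the arrays of BID and of BCL2L1 were all lower in siCHD8 than in siCt, by log2 differences of -0.18 (adjusted p 0.448) and -0.10 (adjusted p 0.678), and the other 7 ranged from -0.16 to 0.16.

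**Figure D3:**
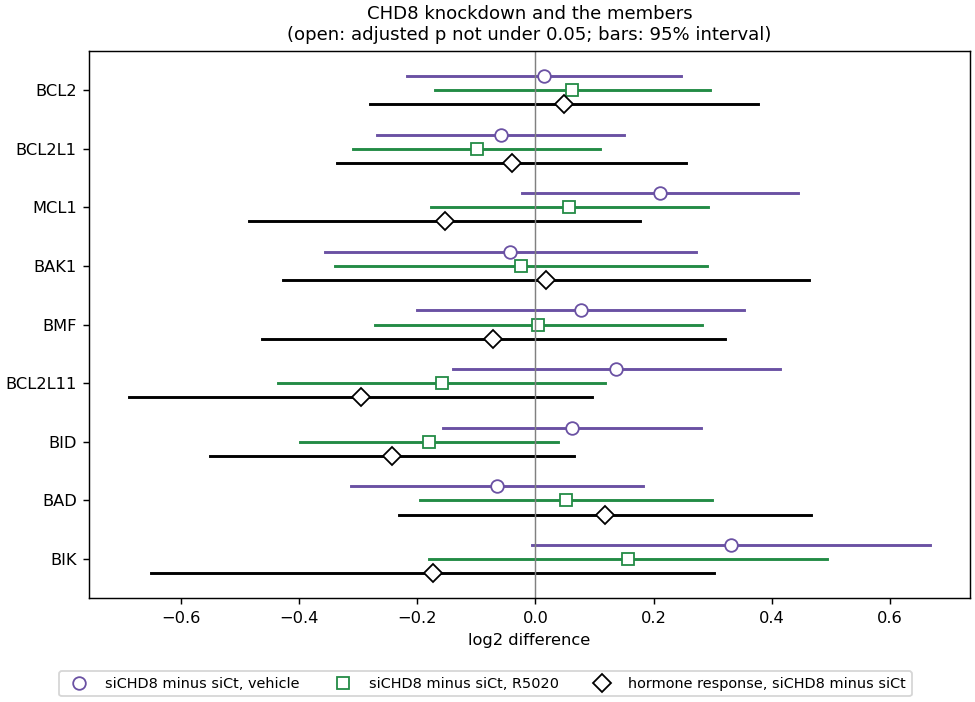
Log2 differences of the members between siCHD8 and siCt with vehicle (circles) and with R5020 (squares), and the difference of the hormone responses (diamonds), with 95% intervals from limma; all symbols are open because none passed. BIK with vehicle, at 0.33, lies farthest to the right, and BCL2L11 in the difference of responses, at -0.30, farthest to the left.

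The genes whose pattern over the 12 arrays was most like that of each called member are given as a description, over arrays that share the same 4 conditions. For BMF they were NAP1L4 and YTHDF1, with Pearson's r of 0.994 and 0.993. BCL2L1 was most like SLPI and RASGEF1A, with r of 0.993 and 0.992. BCL2L11 had its closest partners at r of 0.956 (TBRG1) and 0.946 (IVNS1ABP).

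Around these members, other cell death genes were counted by list, and the lists were chosen with earlier results of these data known. Of all probe sets, 8.1% were called higher and 6% lower in siCt, and 6.04% and 5.43% in siCHD8. Among 13 measured other genes of the family, 3 were called higher with R5020 in siCt and 0 lower, and in siCHD8 the counts were 2 and 0. The 3 were BNIP3 (1.08 ± 0.10, SE), BNIP3L (0.88 ± 0.13) and BCL2L13 (0.85 ± 0.14), which act in the removal of mitochondria by autophagy rather than as classical death genes. In siCHD8 BNIP3 rose by 0.90 and BNIP3L by 0.56, while BCL2L13 differed by 0.44 and did not pass (adjusted p 0.0604 in limma). That value passed in 7 of 22 alternatives, with and without left-out arrays, among them without siCHD8 EtOH replicate 1 (0.59, adjusted p 0.012) and without siCt EtOH replicate 3 (0.44, adjusted p 0.0478); its adjusted p ran from 0.0065 to 0.216. BAX, PMAIP1 (NOXA) and BBC3 (PUMA), named after their values were seen, did not pass in siCt, with log2 differences of -0.24, 0.38 and -0.24. The list's median was 0.03 in siCt and 0.08 in siCHD8.

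Downstream of the mitochondrion, 1 of 14 measured genes of the apoptosome, the caspases and their inhibitors was called higher and 0 lower, with either siRNA. That is near the share of all probe sets called higher, 8.1% in siCt and 6.04% in siCHD8. The called gene was CASP6, an executioner caspase, which rose by 1.08 ± 0.14 in siCt and by 0.95 in siCHD8. The list's medians were 0.19 and 0.05. The count of 1 became 2 in 11 of 22 alternatives in siCt and in 5 of 22 in siCHD8. Those in siCt included median centring, quantile normalization, array weights and the trended and robust variance. They also included leaving out siCt EtOH replicate 2, siCHD8 EtOH replicate 1 or siCHD8 EtOH replicate 3. Those in siCHD8 included leaving out siCt EtOH replicate 3 or siCHD8 R5020 replicate 1.

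The death receptor route reaches the family through BID. Of 9 measured genes, 3 were called higher and 1 lower in siCt, and 4 and 1 in siCHD8, with medians of 0.16 and 0.31. The 5 calls in siCHD8 became 3 without siCHD8 EtOH replicate 2 or without siCHD8 R5020 replicate 1 or replicate 2. They also became 3 when probe sets without a symbol were tested too, or when only the compared conditions were fitted. TNFRSF10A, a receptor for the ligand TRAIL, rose by 2.15 ± 0.17 in siCt and by 1.91 in siCHD8. Its log2 intensity was 4.33, 4.73 and 4.28 in siCt with vehicle and 6.73, 6.61 and 6.44 with R5020. TNFRSF10B, the other death-inducing TRAIL receptor, rose by 0.95 ± 0.11 and by 1.01. TNFSF10, TRAIL itself, fell by 1.59 on the log2 scale in siCt (SE 0.21) and by 2.00 in siCHD8. Its log2 intensity was 7.90, 7.87 and 6.89 in siCt with vehicle and 6.00, 6.01 and 5.90 with R5020, so 1 vehicle array was low and still above every hormone array. So TNFRSF10A and TNFRSF10B were higher and their ligand lower under the hormone. The related receptor gene TNFRSF10D, named after its values were seen, did not pass, with differences of -0.18 in siCt and -0.19 in siCHD8. CFLAR, which encodes the caspase-8 inhibitor FLIP, rose by 0.80 ± 0.15 and by 0.55, but its second probe set gave 0.32 (adjusted p 0.219 in limma) and 0.03 and did not pass. The rise of CFLAR in siCHD8 (adjusted p 0.0256) was lost without siCHD8 EtOH replicate 2 (0.38) and without siCHD8 R5020 replicate 1 (0.51), replicate 2 (0.56) or replicate 3 (0.58), with adjusted p over 22 alternatives from 0.00362 to 0.12. With no array left out of a group, it was also lost in limma when probe sets without a symbol were tested too (adjusted p 0.0666). The same held when only the compared conditions were fitted (adjusted p 0.0579).

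Of 17 measured genes that act on BCL2 family proteins or genes, 6 were called higher and 1 lower in siCt, and 5 and 1 in siCHD8, with medians of 0.28 and 0.11. PIM2, a kinase that phosphorylates BAD, rose by 2.38 ± 0.14 in siCt and by 2.67 in siCHD8. Its log2 intensity was 6.17, 6.39 and 5.75 in siCt with vehicle and 8.56, 8.38 and 8.52 with R5020, far apart. FOXO4, of the forkhead factors that act on BCL2L11, rose by 1.496 ± 0.15 and by 1.67. DYNLL1, the dynein light chain that anchors BIM, rose by 1.36 ± 0.18 and by 1.39, and its second probe set gave 1.23 and 1.25. RPS6KA1 (RSK1), another BAD kinase, rose by 1.04 ± 0.11 and by 0.88. Other genes of these families, named after their values were seen, did not all move that way. AKT1, also a BAD kinase, was the gene called lower in siCt, where it fell by 0.38 on the log2 scale (limma, adjusted p 0.038), and its difference in siCHD8 was -0.37 (adjusted p 0.0504). The gene called lower in siCHD8 was another, USP9X, also named after its values were seen. Its difference was -0.64 there (limma, adjusted p 0.00147) and -0.21 in siCt (adjusted p 0.262). AKT2 rose by 0.34 and by 0.47, and FOXO3 differed by -0.57 in siCt and -0.17 in siCHD8 without passing. PIM1 differed by 0.25 in siCt and 0.11 in siCHD8, and PIM3 by 0.05 and 0.11. For FOXO1 the differences were 0.27 and 0.33, and for DYNLL2 0.42 and 0.19. PIM1, PIM3, FOXO1 and DYNLL2 passed with neither siRNA. For the 4 lists together, 0 genes were called in the difference of responses or between siCHD8 and siCt. That is near the shares of all probe sets called. These were 0% in the difference of responses, and 0.292% with vehicle and 0.189% with R5020 between siCHD8 and siCt.

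**Figure D4:**
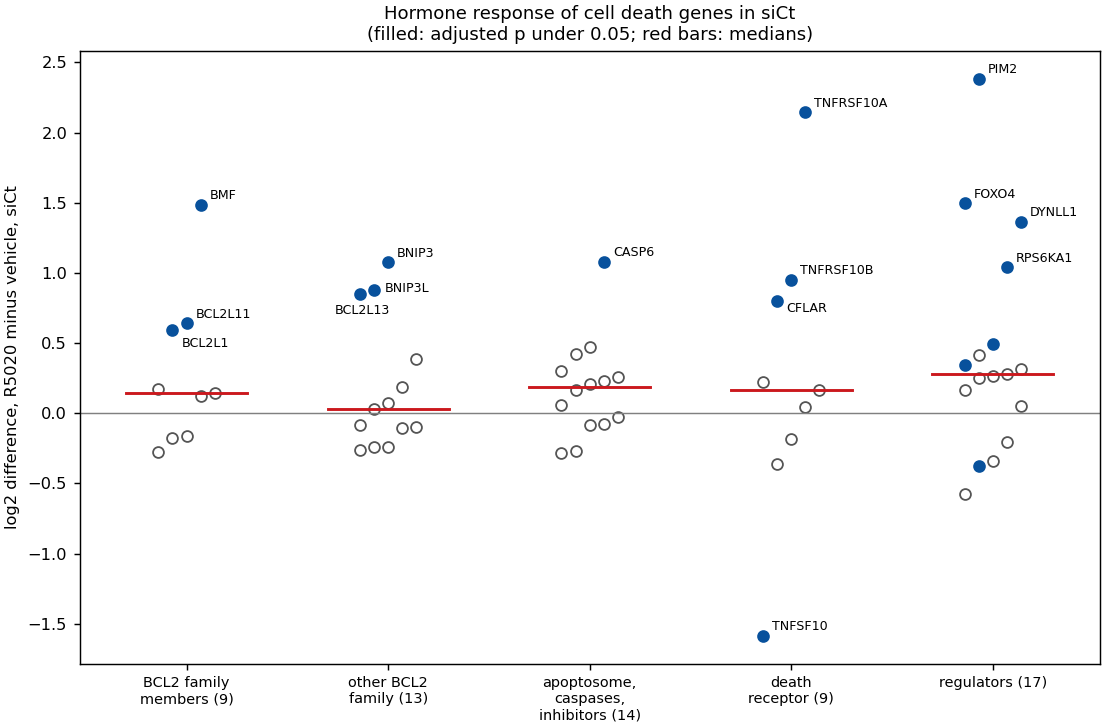
Log2 difference, R5020 minus vehicle in siCt, of the 9 members and of the measured genes of 4 lists, 1 point per gene; filled points passed an adjusted p under 0.05, red bars are medians, and up to 4 called genes per list are named. PIM2 (2.38), TNFRSF10A (2.15) and TNFSF10 (-1.59) lie farthest from 0, and the medians lie between 0.03 and 0.28.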

How the data were processed

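Affymetrix Human Gene 1.0 ST arrays were used for the RNA of T47D-MTVL cells, 3 per condition. The authors extracted the scans with GeneChip Command Console and used RMA (which corrects background, equalises the distributions of the arrays by quantiles and summarises the probes of a set) and oneChannelGUI, in versions that the sources used here do not give. What they deposited are log2 intensities, and they were taken as they are. Of 33297 probe sets, 12083 carry no gene symbol and were left out; the 21214 tested include 1754 with several symbols, which name no gene here. The 12 arrays entered 1 fit in limma 3.58.1 (R 4.3.3) that had a mean for each condition, and p-values were adjusted by Benjamini-Hochberg over every probe set tested. With 3 arrays per condition, their number limits the precision. Genes named are the 9 members, CHD8, and up to 4 genes per list called for R5020 in siCt. The 2 genes most like each called member are named as well. BAX, PMAIP1, BBC3, TNFRSF10D, AKT1, AKT2, USP9X, FOXO1, FOXO3, PIM1, PIM3, DYNLL2 and the keratins KRT5 and KRT14 were named outside this rule, after their values were seen. Luminal, basal, fibroblast, and blood and endothelial markers were summarised. The members and lists were chosen with earlier results of these data known. The fit was tested on simulated data. The alternatives changed the scaling (median centring or quantile normalization), the probe sets tested (none under a mean of 5, all, or 1 for each gene), the variance (trended and robust, or array weights), the arrays in the fit, the threshold (the study's limits) and the replicate number (as a block). Python 3.11.15 with pandas 2.3.3 read the RefSeq promoter table, and matplotlib 3.10.9 drew the figures.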

Additional observations from a re-analysis of the deposited data

How the results depend on the processing

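Over up to 23 alternatives, all 5 called results of members (BMF and BCL2L1 with either siRNA, BCL2L11 in siCt) kept their direction and their call at an adjusted p under 0.05 in each alternative fit that tested them; BCL2, BCL2L11 and BIK are not tested when dim probe sets are left out, so the count in siCt is then 2 in place of 3. BMF in siCt ran from 1.43 to 1.56, BCL2L1 from 0.51 to 0.66 and BCL2L11 from 0.58 to 0.74. At the study's limits the count in siCHD8 was 1 in place of 2, because the fold of BCL2L1 there is 1.46. Of 40 uncalled results, 1 passed in some alternative (BCL2L11 in siCHD8) and 17 changed sign. Those that changed sign were called in no setting. The widest of them in the main fit were the differences of responses of BIK (-0.17) and BAD (0.12). The cause of the sign changes was not tested. The replicate numbers showed no clear pairing of the arrays: deviations of the 18 same-numbered pairs correlated at -0.25 to 0.20, with 4 above 0.1, and 5 of 12 arrays were most like one of their own number. Whether same-numbered arrays come from one experiment is not stated, and these values cannot decide it. With the replicate block the counts of members stayed 3 and 2, BCL2L13 passed in siCHD8 (adjusted p 0.049, against 0.0604 without the block and 0.0065 to 0.216 over its alternatives), and the called genes of the apoptosome and caspase list became 2 with either siRNA. The mean over several probe sets was not run, since each member has 1, and the fit of the compared conditions alone gives no difference of responses. The mean signals of BCL2, BCL2L11 and BIK are under the dim limit of 5, where differences can be compressed; this was not tested.

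The sign changes were as follows. With median centring, the difference of responses was -0.011 for BCL2 and -0.041 for BAK1, siCHD8 minus siCt with vehicle was -0.0079 for BCL2, and with R5020 it was -0.018 for BCL2, -0.024 for MCL1, -0.029 for BAD and -0.076 for BMF. With quantile normalization, BCL2 gave -0.034 for the difference of responses, -0.0029 with vehicle and -0.037 with R5020, and BAK1 gave 0.017 with R5020. With array weights, BAK1 gave -0.050 for the difference of responses and 0.0035 with vehicle, BAD gave 0.036 with vehicle, and BMF gave -0.012 with R5020. With siCHD8 EtOH replicate 1 and siCt EtOH replicate 3 both left out, the difference of responses was -0.045 for BCL2, -0.031 for BAD and 0.0040 for BMF, the difference with vehicle was 0.083 for BAD and -0.023 for BID, and R5020 in siCHD8 gave 0.019 for MCL1. With each array left out in turn, R5020 in siCHD8 ran from -0.086 to 0.019 for MCL1. The difference of responses then ran from -0.057 to 0.11 for BCL2, from -0.089 to 0.0086 for BCL2L1, from -0.00034 to 0.19 for BAD, from -0.11 to 0.16 for BAK1, from -0.29 to 0.0088 for BIK and from -0.22 to 0.019 for BMF. The difference with vehicle ran from -0.046 to 0.12 for BCL2, from -0.13 to 0.052 for BAD, from -0.11 to 0.086 for BAK1 and from -0.014 to 0.23 for BMF, and that with R5020 from -0.13 to 0.11 for BAK1 and from -0.040 to 0.043 for BMF.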
